A study of Mus musculus with 6 samples.

Results

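The genes described here are 8 components of the Notch pathway in C2C12 myotubes, namely the receptors Notch1, Notch2 and Notch3, the ligands Jag1 and Dll1, and the target genes Hes1, Hey1 and Heyl. They were taken as a list by name, and all 8 stood in the count table of 12625 genes and were tested. C2C12 is a mouse myoblast line whose cells fuse into multinucleated myotubes in low serum. After 5 days of differentiation, 3 libraries came from myotubes kept for 72 h with recombinant murine RANKL at 100 ng per ml, and 3 from myotubes given vehicle. RANKL is a cytokine of the TNF family, known for driving osteoclast formation. Both groups are the same unmodified line, and a culture of this kind holds unfused cells beside myotubes.

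In Notch signalling a ligand on one cell binds a receptor on its neighbour. The receptor is then cut by an ADAM protease and by gamma-secretase, and its intracellular part enters the nucleus, joins the DNA-binding protein RBPJ and the coactivator Mastermind, and switches on Hes and Hey genes. Hes and Hey proteins are basic helix-loop-helix repressors. In skeletal muscle the pathway is known for holding satellite cells, the muscle stem cells, in an undifferentiated state, and its activity in cultured myoblasts opposes differentiation.

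Under RANKL, RNA of the receptor Notch1, the ligand Dll1 and the target Hes1 fell, by 17.1%, 21.3% and 14.7%. The receptors Notch2 and Notch3 and the targets Hey1 and Heyl had fitted fold changes of 1.09, 1.09, 1.13 and 1.15, none of which passed the test. The ligand Jag1 stood at a fold of 0.895 and did not pass either. The test was edgeR's quasi-likelihood test with Benjamini-Hochberg adjustment over all genes and a threshold of 0.05. It called 3 of the 8 genes lower (37.5%), against 7.50% of all genes tested, and 0 higher, against 5.35%. Of the genes not called, 2 with a positive fold change, Notch2 and Heyl, had an unadjusted p below 0.05. Among 16 alternative fits given below, 5 called Notch2 higher, though DESeq2 and the limma fits called no member higher. The median log2 fold change of the 8 was -0.02, beside 0.00 for all genes, so the members did not shift in 1 direction. The 8 genes were listed with earlier results of these data known, which bears on any reading of their share. In bulk RNA, fewer cells of a type and less RNA per cell cannot be told apart.

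**Figure D1:**
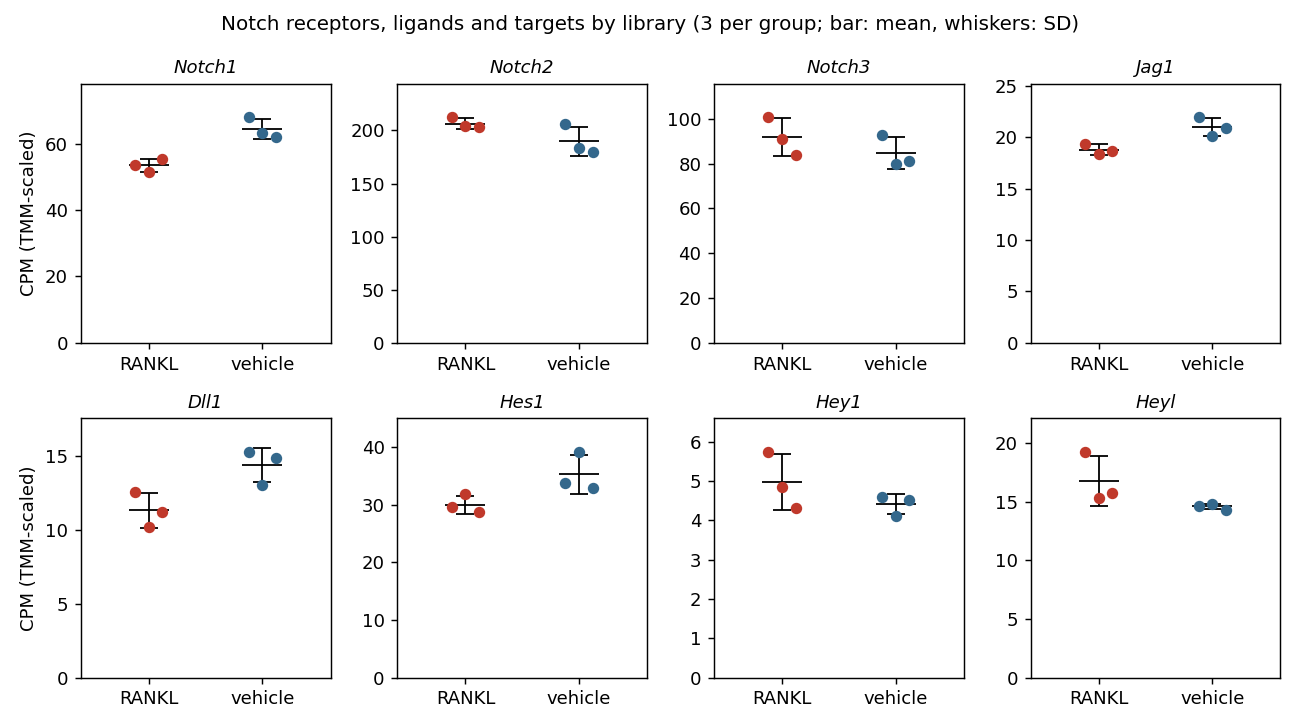
Level of each of the 8 genes in CPM (counts per 1000000, scaled by TMM) in the 3 RANKL libraries (left, red) and the 3 vehicle libraries (right, blue), with the mean as a bar and the SD as whiskers; each panel has its own axis from 0. Notch1, Jag1, Dll1 and Hes1 lie lower in every RANKL library than in any vehicle library, Heyl lies higher, and the groups overlap for Notch2, Notch3 and Hey1.

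Total counts lay between 32732604 and 37445933 in the RANKL libraries and between 33566746 and 39677999 in the vehicle libraries. Over all genes the test called 676 higher and 947 lower, and 1070 higher and 626 lower with scaling to total counts. Markers of the labelled cell type were abundant. Myh3, an embryonic myosin, averaged 7091 ± 102 CPM under RANKL and 7769 ± 193 CPM under vehicle (mean ± SD, n = 3 each, as below). Myog, a factor of muscle differentiation, averaged 542 ± 18.1 CPM under RANKL and 540 ± 13.5 CPM under vehicle. The fusion genes Mymk and Mymx are not analysed here. The labels do not state separate cultures for the replicates, so the p-values rest on the spread between libraries and that spread can be technical.

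Promoter sequences show what a receptor and a ligand of this set look like at their starts. RefSeq windows on GRCm38.p6, the assembly of mm10, were found for 5 of the 8 genes, with 6 starts in all, and the 250 bases before each start were searched on both strands. The letters GGGCGG, a GC box of the kind bound by Sp1, were counted 5 times for Notch1, 5 times for Notch2 and 4 times for Notch3, and not at all for Jag1 or either start of Dll1. GGGCGG was present at least once in 32.7% of 32851 such windows, and the number of matches per window was not compared. GC content was 66%, 72% and 68.8% in the windows of Notch1, Notch2 and Notch3. It was 57.2% for Jag1 and 56% and 64% for the upstream and downstream starts of Dll1. E-boxes, CANNTG, bound by basic helix-loop-helix factors such as MyoD, were absent from the windows of the 3 receptors. They were present in those of Jag1 (1) and Dll1 (3 for the upstream start and 1 for the downstream start). Of all windows, 66.2% hold one. The core TGGGAA, bound by RBPJ, matched in none of the 6 windows and in 21.6% of all windows. No window held more than 1 kind of these motifs, so motifs of different kinds did not overlap. Such matches describe letters in these windows and nothing about binding. Notch1 and Notch2 are shown because their changes differ in sign, with GC boxes in capitals, and Dll1 because it fell furthest of the 8, with E-boxes in capitals. The Notch1 start of RefSeq lies inside the longer gene of GENCODE M21, and the upstream Dll1 start lies upstream of the GENCODE gene. The Notch1 window is chr2:26503823-26504072 on the minus strand, that of Notch2 is chr3:98013288-98013537 on the plus strand, and those of Dll1 are chr17:15376933-15377182 (upstream start) and chr17:15375824-15376073 (downstream start) on the minus strand.
Notch1: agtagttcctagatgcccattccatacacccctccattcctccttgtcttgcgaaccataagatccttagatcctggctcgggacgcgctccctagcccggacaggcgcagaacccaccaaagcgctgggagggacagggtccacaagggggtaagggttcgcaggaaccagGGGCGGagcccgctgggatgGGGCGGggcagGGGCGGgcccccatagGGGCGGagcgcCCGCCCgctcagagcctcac
Notch2: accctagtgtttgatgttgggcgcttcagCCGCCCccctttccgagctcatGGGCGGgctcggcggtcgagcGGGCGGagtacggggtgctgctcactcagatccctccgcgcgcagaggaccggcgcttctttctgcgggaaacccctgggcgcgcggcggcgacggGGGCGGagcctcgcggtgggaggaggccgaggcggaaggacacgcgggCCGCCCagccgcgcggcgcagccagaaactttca
Dll1, upstream start: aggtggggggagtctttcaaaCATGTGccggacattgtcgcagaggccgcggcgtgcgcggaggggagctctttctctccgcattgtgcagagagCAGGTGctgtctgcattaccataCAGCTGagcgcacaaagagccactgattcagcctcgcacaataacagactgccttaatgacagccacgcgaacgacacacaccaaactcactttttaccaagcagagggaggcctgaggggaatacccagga
Dll1, downstream start: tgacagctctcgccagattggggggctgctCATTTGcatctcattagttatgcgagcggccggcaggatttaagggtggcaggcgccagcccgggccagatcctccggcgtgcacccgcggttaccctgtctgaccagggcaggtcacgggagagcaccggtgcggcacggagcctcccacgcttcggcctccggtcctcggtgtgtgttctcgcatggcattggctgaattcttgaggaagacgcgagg

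The order of levels was read from the authors' deposited log2 RPKM, which divides by gene length. Under vehicle, Hes1 was the most abundant at 4.60 ± 0.13 on the log2 RPKM scale, above 75.4% of all genes in the table. Notch2 followed at 4.17 ± 0.10, Notch3 at 3.41 ± 0.12 and Notch1 at 2.76 ± 0.07. Dll1 (2.07 ± 0.12) and Jag1 (1.94 ± 0.06) overlapped between libraries, though Dll1 lay above Jag1 within each vehicle library. Heyl (1.69 ± 0.02) and Hey1 (1.02 ± 0.08) were lowest, Hey1 being above 20.3% of genes. Under RANKL, Hes1 at 4.37 ± 0.08 and Notch2 at 4.30 ± 0.04 on the log2 RPKM scale overlapped between libraries. Within each RANKL library Hes1 lay above Notch2. Notch3 (3.53 ± 0.13) and Notch1 (2.49 ± 0.05) stayed apart under RANKL. Heyl at 1.88 ± 0.18, Jag1 at 1.78 ± 0.04 and Dll1 at 1.72 ± 0.15 overlapped in their ranges. Within each RANKL library Heyl lay above Jag1 and Dll1, whose own order differed between libraries. Hey1 was again lowest at 1.18 ± 0.20.

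Notch1, the receptor most studied in satellite cells, had 53.6, 51.4 and 55.3 CPM in RANKL replicates 1, 2 and 3, against 67.9, 63.4 and 62.1 CPM in vehicle replicates 1, 2 and 3. The groups did not overlap, as was so for 5 of the 8 genes (62.5%) and for 31.5% of all genes. Its log2 fold change was -0.27 ± 0.04 (SE), with a 95% interval from -0.36 to -0.18 and an adjusted p of 0.00100. Notch1 kept its call in all 16 alternatives, with adjusted p between 2.21e-05 and 0.0171 and log2 fold changes between -0.30 and -0.22. The gene lies on chromosome 2 from 26457903 to 26516663 on the minus strand of mm10 and is protein-coding. Its exons overlap those of 0610009E02Rik and Gm13568 on the opposite strand, and whether counting used strand is not stated in the sources used here.

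Notch2, a receptor also expressed in satellite cells, had 212, 204 and 203 CPM in the RANKL libraries, against 206, 183 and 180 CPM in the vehicle libraries. Vehicle replicate 1 lay among the RANKL values and the other vehicle libraries below them. The log2 fold change of Notch2 was 0.12 ± 0.04 with a 95% interval from 0.03 to 0.22, and it did not pass (unadjusted p = 0.0163, adjusted p = 0.0903). Without vehicle replicate 1 it was 0.19 and passed (adjusted p = 0.00763), and it also passed with total count scaling (0.0271) and with the trends on gene length (0.00432) or GC content (0.0368) removed. It passed in 5 of the 16 alternatives, over which the adjusted p lay between 0.00432 and 0.299. Notch2 lies on chromosome 3 from 98013527 to 98150361, and 1 same-strand gene model, Gm42820, shares exon sequence with it.

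Notch3, a receptor best known from vascular mural cells, had 101, 90.9 and 84.0 CPM in the RANKL libraries, against 92.9, 79.9 and 81.2 CPM in the vehicle libraries. The groups overlapped, and replicate 1 was the highest of its group on each side. Its log2 fold change was 0.12 ± 0.06, with an interval from -0.02 to 0.25 and an adjusted p of 0.249. No alternative called Notch3 (adjusted p from 0.0515 to 0.611), and without RANKL replicate 1 its log2 fold change was 0.05. Notch3 lies on chromosome 17 from 32120820 to 32166852, on the minus strand, and its exons overlap Gm17276 on the opposite strand.

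The receptors can also be set against each other within a library, where no scaling between libraries enters. Notch1 made up 14.7%, 14.9% and 16.3% of the summed RPKM of the 3 receptors in RANKL replicates 1, 2 and 3, against 18.6%, 19.6% and 19.3% in vehicle replicates 1, 2 and 3. Notch2 held 53.3 ± 0.822% under RANKL and 50.8 ± 0.253% under vehicle, with no overlap, and Notch3 held 31.4 ± 1.64% under RANKL and 30.0 ± 0.508% under vehicle, with overlap. On counts, the log2 ratio of Notch1 to Notch2 averaged -1.95 ± 0.07 under RANKL and -1.56 ± 0.04 under vehicle, a difference of -0.39. The log2 ratio of Notch1 to Notch3 averaged -0.78 ± 0.16 under RANKL and -0.39 ± 0.06 under vehicle, also a difference of -0.39. Neither ratio overlapped between the groups. An exact two-sided permutation test gave p = 0.1 for each, the smallest that 3 libraries against 3 allow, and 0.1 adjusted over the 4 ratios tested. These ratios, like the 2 given below for ligands and targets, were chosen after the values were seen.

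**Figure D2:**
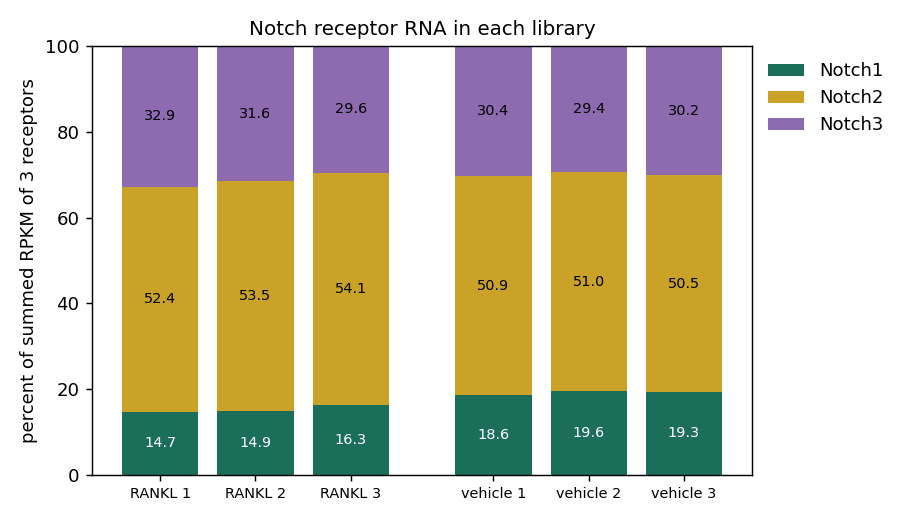
Percent of the summed RPKM of Notch1, Notch2 and Notch3 held by each receptor, in the 3 RANKL libraries (left) and the 3 vehicle libraries (right). Notch1 holds 14.7% to 16.3% under RANKL and 18.6% to 19.6% under vehicle, while Notch2 is the largest part in every library.

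Dll1, a ligand expressed by differentiating muscle cells that signals to their neighbours, had 12.5, 10.2 and 11.2 CPM in the RANKL libraries, against 15.2, 13.0 and 14.8 CPM in the vehicle libraries. The groups did not overlap, though RANKL replicate 1 came close to vehicle replicate 2. Its log2 fold change of -0.35 ± 0.08 was the largest in size of the 8 (95% interval -0.53 to -0.17, adjusted p = 0.0148). Leaving out vehicle replicate 1 (adjusted p = 0.0805), vehicle replicate 3 (0.0605) or RANKL replicate 2 (0.0774) ended the call, and over the 16 alternatives the adjusted p lay between 0.00146 and 0.0805. Dll1 lies on chromosome 17 from 15367354 to 15376872, on the minus strand, and its exons overlap A930024N18Rik on the opposite strand.

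Jag1, a Serrate-type ligand, had 19.4, 18.3 and 18.7 CPM in the RANKL libraries, against 21.9, 20.1 and 20.9 CPM in the vehicle libraries. Every RANKL library lay below every vehicle library, yet the log2 fold change of -0.16 ± 0.06 did not pass (95% interval -0.28 to -0.04, unadjusted p = 0.0122, adjusted p = 0.0762). None of the 16 alternatives called it, with adjusted p from 0.0668 to 0.254. The log2 ratio of Dll1 to Jag1 counts was -0.74 ± 0.11 under RANKL and -0.55 ± 0.07 under vehicle, a difference of -0.19 without overlap (exact two-sided permutation p = 0.1, also 0.1 adjusted over the 4 ratios). Jag1 lies on chromosome 2 from 137081456 to 137116644, and no annotated exon of another gene overlaps it.

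Hes1, the repressor most widely used as a readout of Notch activity, had 29.6, 31.8 and 28.7 CPM in the RANKL libraries, against 33.7, 39.1 and 33.0 CPM in the vehicle libraries. The groups did not overlap, and vehicle replicate 2 stood above all the others. The log2 fold change was -0.23 ± 0.06 (95% interval -0.37 to -0.09, adjusted p = 0.0278). Without vehicle replicate 2 it was -0.15 and was not called (adjusted p = 0.134), nor was it called without RANKL replicate 3 (0.0833), with total count scaling (0.0548) or with the trend on GC content removed (0.0753), within a range of 0.00472 to 0.134 over the alternatives. Hes1 lies on chromosome 16 from 30064384 to 30067796 with no overlapping exon of another gene.

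Hey1 and Heyl, repressors of the Hey branch, lay on the other side of 0. Hey1 was the least abundant of the 8, with 216, 165 and 143 counts in the RANKL libraries, against 178, 137 and 167 in the vehicle libraries, which is 5.73, 4.85 and 4.32 CPM against 4.58, 4.12 and 4.52 CPM. Those groups overlapped, and the log2 fold change of 0.17 ± 0.12 did not pass (95% interval -0.08 to 0.43, adjusted p = 0.378). Heyl had 19.2, 15.3 and 15.7 CPM in the RANKL libraries, against 14.6, 14.8 and 14.3 CPM in the vehicle libraries. RANKL replicate 1 stood above the rest and all RANKL values exceeded all vehicle values, but the log2 fold change of 0.20 ± 0.08 did not pass (95% interval 0.03 to 0.38, unadjusted p = 0.0236, adjusted p = 0.113). Without RANKL replicate 1 the log2 fold change was 0.06 for Hey1 and 0.09 for Heyl. No alternative called either gene.

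Within the targets, the log2 ratio of Hes1 to Heyl counts was 0.62, 1.05 and 0.87 in the RANKL libraries, against 1.20, 1.40 and 1.20 in the vehicle libraries. The groups did not overlap, and the difference was -0.42 (exact two-sided permutation p = 0.1, the smallest possible, and 0.1 adjusted over the 4 ratios). Hey1 lies on chromosome 3 from 8663359 to 8667256 and Heyl on chromosome 4 from 123233556 to 123249875, neither with an overlapping exon of another gene.

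**Figure D3:**
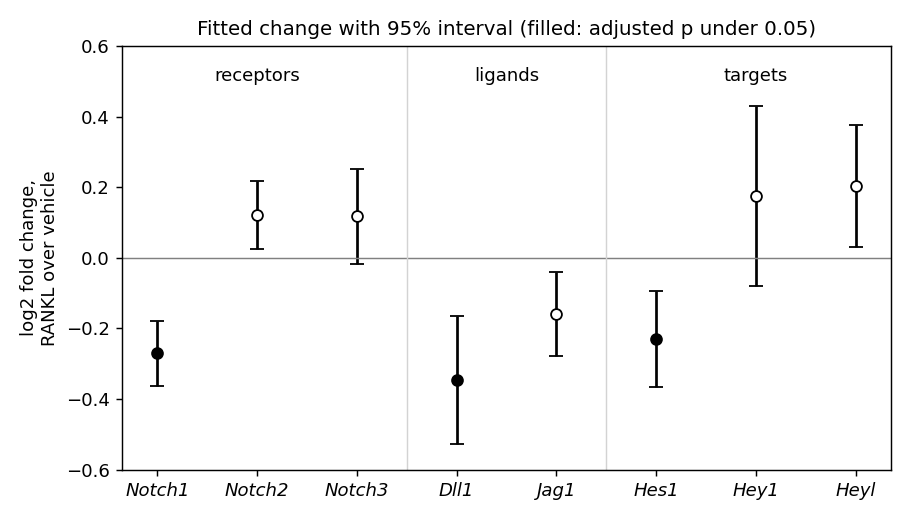
Fitted log2 fold change, RANKL over vehicle, of the 8 genes with its 95% interval, by role. Notch1 (-0.27), Dll1 (-0.35) and Hes1 (-0.23), drawn filled, passed the test; the intervals of Notch2 and Heyl lie above 0 and that of Jag1 below 0 without passing after adjustment.

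**Figure D4:**
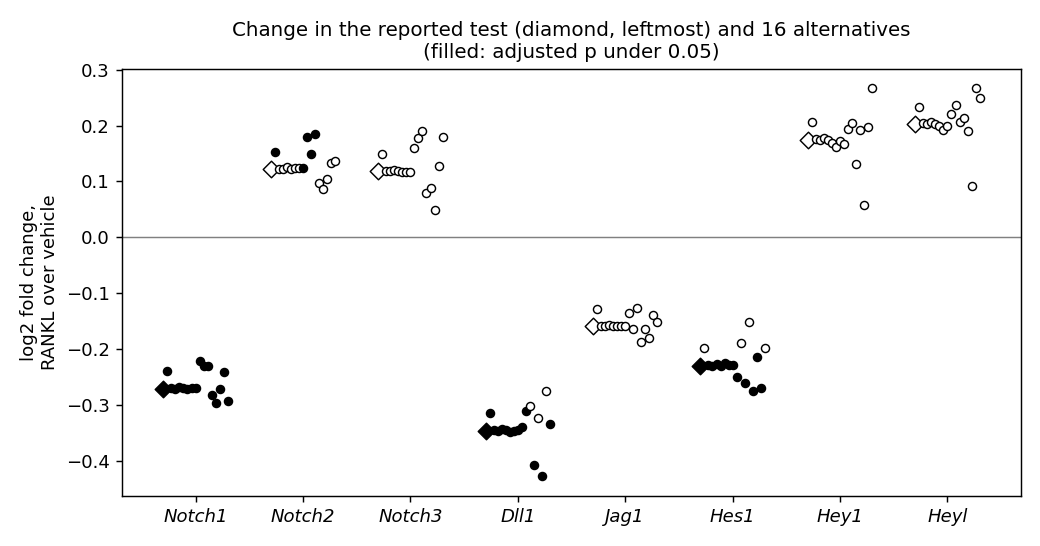
Log2 fold change of the 8 genes in the reported test (diamond) and in 16 alternatives (circles: scaling, filter, tool, replicate block, trends on gene length and GC content, then each library left out), filled where the adjusted p was under 0.05. Notch1 is filled throughout, Dll1 in 13 and Hes1 in 12 of the 16 alternatives, and Notch2 in 5; no gene crosses 0.

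The wider pathway was read from 72 further genes, of which 62 were measured. Of these 5 rose and 7 fell, 19.4% called in all, against 12.9% of all genes, with a median log2 fold change of -0.02. None of 10 genes for cleavage of the receptor passed by edgeR, 1 having an unadjusted p under 0.05, and none passed in any of the 16 alternatives. That gene was Furin, which makes the first cut of the receptor, with 175 ± 4.25 CPM under RANKL and 185 ± 7.46 CPM under vehicle (log2 fold change -0.08 ± 0.04, adjusted p = 0.147). Of 8 measured glycosylation genes 1 fell (12.5%, against 7.50% of all genes), Gxylt2, a xylosyltransferase that extends sugars on Notch EGF repeats. It averaged 16.4 ± 0.832 CPM under RANKL and 20.6 ± 0.828 CPM under vehicle (log2 fold change -0.33 ± 0.06, adjusted p = 0.00251).

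Among 13 genes of ligand and receptor endocytosis and turnover, 2 rose (15.4%, against 5.35% of all genes). Dtx3l, a Deltex-family ubiquitin ligase that works with PARP9, averaged 15.4 ± 0.786 CPM under RANKL and 11.1 ± 0.489 CPM under vehicle (log2 fold change 0.48 ± 0.07, adjusted p = 0.000436). Its exons overlap those of Parp9 on the opposite strand, so reads of the pair may be mixed. Dtx4, another Deltex-family member, averaged 115 ± 6.46 CPM under RANKL and 99.6 ± 1.35 CPM under vehicle (log2 fold change 0.20 ± 0.04, adjusted p = 0.00414). The ligands Jag2 and Dlk2 did not pass, with log2 fold changes of -0.07 ± 0.05 and -0.09 ± 0.19.

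In the nuclear complex 2 of 21 measured genes rose (9.52%) and 5 fell (23.8%), against 5.35% and 7.50% of all genes. Rbpj, the DNA-binding partner of all Notch receptors, averaged 28.2 ± 0.649 CPM under RANKL and 24.5 ± 0.650 CPM under vehicle (log2 fold change 0.21 ± 0.05, adjusted p = 0.0111), and it narrowly missed without vehicle replicate 3 (0.0512) and with limma-trend on the deposited log2 values (0.0536), within a range of 0.00352 to 0.0536. Spen, a corepressor that binds RBPJ, fell by 0.23 ± 0.05 on the log2 scale (adjusted p = 0.00439), and Tle3, a Groucho-type corepressor recruited by Hes proteins, fell by 0.21 ± 0.04 (adjusted p = 0.0018). Other called genes were Snw1, which rose by 0.12 ± 0.03, and Crebbp and Tle2, which fell by 0.18 ± 0.05 and 0.26 ± 0.07. Snw1 and Crebbp each lost the call when RANKL replicate 2 or either of vehicle replicates 1 and 2 was left out, and Tle2 when any of these or vehicle replicate 3 was. With every library kept, Snw1 lost the call with the trend on GC content removed (adjusted p = 0.121) and Crebbp with limma-trend on the deposited log2 values (adjusted p = 0.0846). Tle2 lost it with total count scaling (adjusted p = 0.0562), DESeq2 (0.0516), limma-trend (0.0579) and the trend on GC content removed (0.107), and so held it in 8 of the 16 alternatives. Rbpj, Snw1, Crebbp, Tle2 and Dlk2 were named after their values were seen. Exons of Spen overlap Zbtb17 on the opposite strand.

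Of 8 other measured target and bHLH genes, 1 rose and 1 fell (12.5% each, against 5.35% and 7.50% of all genes). Hes6, a Hes relative that promotes differentiation and counters Hes1, averaged 168 ± 4.54 CPM under RANKL and 195 ± 7.22 CPM under vehicle (log2 fold change -0.22 ± 0.04, adjusted p = 0.0012). Bhlhe41, a bHLH repressor, averaged 107 ± 2.17 CPM under RANKL and 94.2 ± 1.01 CPM under vehicle (log2 fold change 0.19 ± 0.03, adjusted p = 0.00151). Nrarp, a feedback inhibitor and direct Notch target, was near the low end of the table, with 2.17 ± 0.435 CPM under RANKL and 1.87 ± 0.214 CPM under vehicle (log2 fold change 0.21 ± 0.17, adjusted p = 0.486, named after its values were seen). Notch4, Dll3, Dll4, Dlk1, Mfng, Dtx1, Hes2, Hes5, Hes7 and Hey2 are not analysed here.

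**Figure D5:**
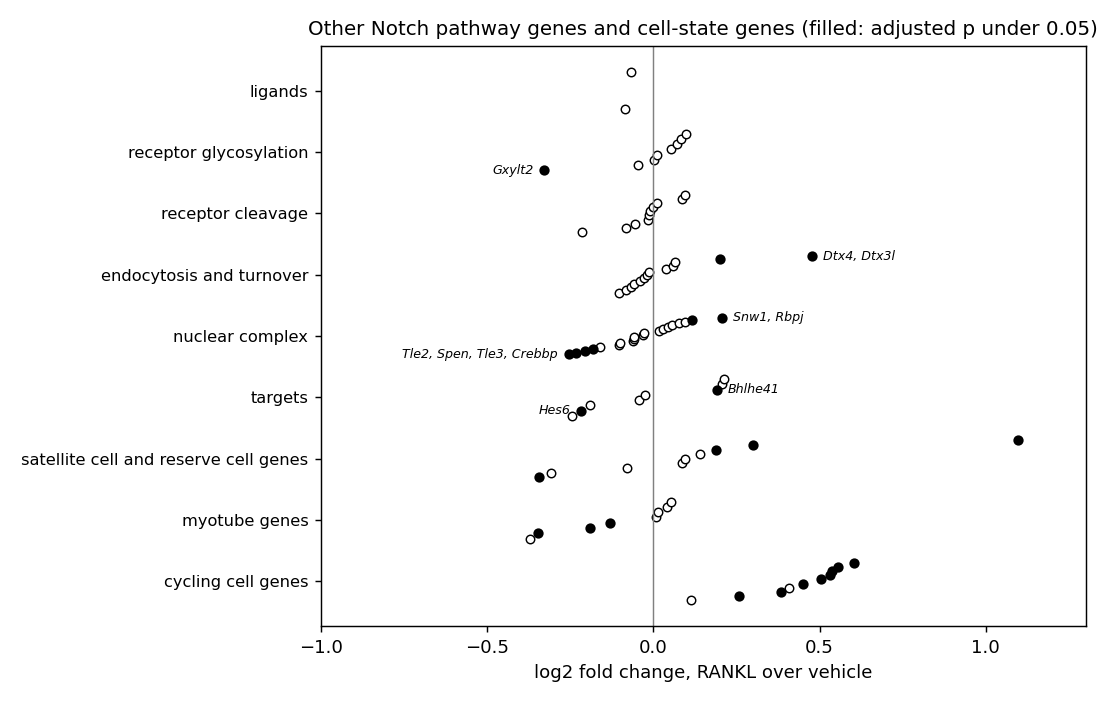
Log2 fold change, RANKL over vehicle, of other Notch pathway genes by step of the pathway, and of satellite cell, myotube and cycling cell genes; each circle is a gene, filled where its adjusted p was under 0.05, with the called pathway genes that are drawn named in order from low to high. Called genes of the nuclear complex lie on both sides of 0, and 8 of 10 cycling cell genes lie above 0 and are filled. Of all genes tested, 5.35% were called higher.

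Some markers of cell states moved between the groups, and their part in the changes of Notch1, Dll1 and Hes1 was not tested. Of 9 measured satellite and reserve cell genes 3 rose (33.3%) and 1 fell (11.1%), against 5.35% and 7.50% of all genes. The summed level of the list was 1917 to 2191 CPM in the RANKL libraries and 1791 to 1934 CPM in the vehicle libraries. Most of it was collagen RNA. Its largest part, Col5a1, was not called (1078 ± 88.4 CPM under RANKL and 1015 ± 51.0 CPM under vehicle). Col6a1 rose by 0.19 ± 0.04 on the log2 scale (adjusted p = 0.00845). Col5a3, another collagen chain of the list, rose to 110 ± 20.4 CPM under RANKL, against 51.4 ± 5.76 CPM under vehicle (log2 fold change 1.10 ± 0.10, adjusted p = 8.25e-06). Cd34, a surface protein of quiescent satellite cells, rose by 0.30 ± 0.05 on the log2 scale (adjusted p = 0.00133). Spry1, an inhibitor of growth factor signalling, fell by 0.34 ± 0.05 (adjusted p = 0.00038). Pax7, the defining satellite cell factor, was at 0.593 ± 0.0615 CPM under RANKL and 0.729 ± 0.0854 CPM under vehicle. With 19 to 30 counts a library, its groups overlapped and it was not called (log2 fold change -0.31 ± 0.24, adjusted p = 0.444).

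Of 10 cycling cell genes 8 rose (80%, against 5.35% of all genes). Mki67, Top2a, Cdk1, Ccnb1 and Ccna2 held the call in all 16 alternatives. Bub1 held it in 8 (adjusted p up to 0.142), Aurkb in 12 (up to 0.137) and Mcm2 in 12 (up to 0.112). Mki67 was at 52.1 ± 3.83 CPM under RANKL and 35.5 ± 2.09 CPM under vehicle. The sum of the 10 was 193 to 222 CPM in the RANKL libraries and 149 to 157 CPM in the vehicle libraries. Of 8 measured myotube genes 3 fell, Myh3, Myh8 and Acta1 (37.5%, against 7.50% of all genes). The other 5 were not called, and 4 of the 8 had a positive log2 fold change. The sum of all 8 was 19779 to 20440 CPM under RANKL and 21276 to 23768 CPM under vehicle. Myh3 lost the call without vehicle replicate 1 (adjusted p = 0.0765), vehicle replicate 2 (0.0958) or RANKL replicate 2 (0.0985), and with total count scaling (0.0645), limma-trend (0.0611) or the trend on GC content removed (0.0519). Mural cell genes, measured in 4 of 7 with Rgs5 and Myh11 not analysed here, held 2 that fell (50%, against 7.50% of all genes). These were Pdgfrb and Cspg4, each by 0.26 on the log2 scale (SE 0.03 and 0.05). The sum of the 4 was 279 to 287 CPM under RANKL and 328 to 346 CPM under vehicle. No call was made among 6 measured fibroblast genes by edgeR, DESeq2, limma-voom or limma-trend. The gene of this list with the smallest p, and the only one with an unadjusted p below 0.05, was Pdgfra (log2 fold change 0.17 ± 0.06, adjusted p = 0.0607, and 0.0190 to 0.177 over the alternatives). The endothelial list, measured in 3 of 8, summed to 4.62 to 5.76 CPM under RANKL and 5.01 to 5.33 CPM under vehicle, and the macrophage and osteoclast list, measured in 2 of 8, to 1.54 to 2.47 CPM under RANKL and 1.20 to 1.35 CPM under vehicle. In both, 0 genes passed by edgeR, DESeq2 or the limma fits, and 0 had an unadjusted p below 0.05. The smallest p in each belonged to Egfl7 (log2 fold change 0.11 ± 0.22, adjusted p = 0.792) and Itgam (0.49 ± 0.24, adjusted p = 0.217).

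The genes whose pattern over the 6 libraries was most like that of Notch1 were found by the root mean square difference of centred log2 CPM, with 11925 genes averaging 1 CPM or more compared. They were Mylk, a myosin light chain kinase (0.0170 log2 units), Ryr3, a calcium release channel (0.0214), and Naca, a nascent-polypeptide-associated protein with a muscle form (0.0236). For Hes1 they were Vldlr, a lipoprotein receptor (0.0330), Shroom2, an actin-binding protein (0.0363), and Tet1, a 5-methylcytosine dioxygenase (0.0449). Over 6 libraries and so many genes, near matches of this size are a description of these libraries.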

How the data were processed

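RNA was sequenced from 3 RANKL and 3 vehicle libraries of C2C12 myotubes, per the labels, in paired-end reads of 75 bases. FastQC, STAR, edgeR and the build mm10 stand in the submitters' processing notes, with no roles or versions. The sources used here do not state the counter, the annotation or the use of strand. The authors deposited a table of raw counts for 12625 symbols, followed by 4708 empty lines that were left out. In each gene the third-highest library had at least 0.504 CPM. The authors also deposited log2 values. These equal log2 RPKM with TMM scaling and edgeR's prior count, up to a constant per gene, a reading from the values, since the header names no unit.

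Counts were tested with edgeR 4.0.16 in R 4.3.3: TMM, filterByExpr (0 genes removed), the quasi-likelihood F test with a 0.05 threshold after Benjamini-Hochberg adjustment. The SE is the size of the log2 fold change over the square root of F. Alternatives changed the scaling, the filter or the tool (DESeq2 1.42.0, limma 3.58.1), added a replicate block, removed trends on gene length or GC content, or left out a library. A count of 0 would allow 3 counts, 0.0756 to 0.0917 CPM, by counting error only. Chi-square per gene between replicates was 3.42 to 9.62, more than sampling noise gives, and each library counts as 1 sample. Positions and exon overlaps come from GENCODE M21 on mm10, and promoter windows from RefSeq on GRCm38.p6.

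Named genes were the 8 members, up to 3 called genes of each other list by smallest p, or the gene with the smallest p where none was called, and the 3 genes most like Hes1 and the member with the smallest p. Of these, 1 gene of the nuclear complex list is counted but not reported here. The members and lists were chosen with earlier results of these data known. The steps were tested on simulated data.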

Additional observations from a re-analysis of the deposited data

How the results depend on the processing

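Each result was recomputed under 16 alternatives. All 8 members kept their sign in all of them. The count of members lower stayed at 3 or went to 2, and 1 member, Notch2, was higher with total count scaling, the replicate block, the trend on gene length removed or the trend on GC content removed. Leaving out a library gave 0 to 1 members higher and 2 to 3 lower. Over all genes, total count scaling gave 1070 higher and 626 lower, and leaving out a library gave 373 to 746 higher and 537 to 880 lower, with 426 and 561 without vehicle replicate 1, 373 and 537 without vehicle replicate 2, and 596 lower without RANKL replicate 2. The cause was not tested. Other pathway genes were 4 to 6 higher and 5 to 8 lower. The replicate numbers were not taken as pairs: deviations of same-numbered libraries from their group means correlated at 0.12, 0.05 and 0.02, and RANKL replicate 3 correlated more with vehicle replicate 2 than with vehicle replicate 3. The replicate block gave 730 higher and 1008 lower genes, and among the members changed only the call of Notch2 (adjusted p = 0.0304). Among 46 genes with 734 recomputed values, 680 kept direction and side of the threshold, 41 lost a call, 8 gained one and 5 reversed, all of these in genes that were not called. Egfl7 lay between -0.059 and 0.32, Dlk2 between -0.23 and 0.023 and Myog between -0.011 and 0.035 on the log2 scale over the libraries left out, and Myog was -0.012 with the trend on gene length removed. Hey1, with 137 to 216 counts a library, had the widest interval of the 8 members.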
